A study of Homo sapiens with 2 samples.

Results

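SR proteins, heterogeneous nuclear ribonucleoproteins (hnRNPs) and their partners decide which splice sites of a pre-mRNA are used. Their transcripts were examined as 44 genes, taken by name: 12 SR and SR-like genes (10 SRSF genes, TRA2A and TRA2B), 6 kinases that act on SR proteins, 18 hnRNP genes, the 2 PTBP genes and 6 other splicing factors. Every probe set that the platform annotation gives to exactly 1 gene was kept where that gene was one of the 44. This gave 157 of the 44672 probe sets in the table, and they read 42 of the 44 genes. SRSF2 and HNRNPH2 had no probe set in the table that the annotation gives to them alone, and neither has a value here.

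RNA came from LNCaP, an androgen-responsive human prostate carcinoma line. The knockdown culture had been infected with lentivirus encoding a short hairpin RNA (shRNA) against KDM4A, a demethylase of histone H3 lysines (a single hairpin construct is named), and the control culture with lentivirus from the empty pLKO.1 vector. Both were harvested 3 days after infection, and no allele or other agent is named for either culture. There was 1 Affymetrix Human Genome U133 Plus 2.0 array per group, so no difference below has a replicate check and no test was possible. The control virus is described as an empty vector, so the presence of a hairpin and the loss of KDM4A cannot be told apart.

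The deposited values were made with RMA (robust multi-array averaging) and are taken here as log2, since the log base is not stated. In every row the 2 arrays sum to 0 within 1e-06, so each value was taken as centred on the mean of the 2 arrays. A value is therefore the distance of an array from that mean, and signal levels are lost. Identity markers of LNCaP cells, such as KLK3, could not be checked for the same reason. Each difference below is the knockdown value minus the control value. The SD beside a gene mean is taken over that gene's own probe sets and says nothing of how cultures vary. Pooled over the 8944 genes with 2 or more probe sets, that SD was 0.33. It describes the scatter of single probe sets within a gene and is not the error of a gene mean. Over all 17689 named genes the median difference was 0.02. In bulk RNA, fewer cells with a transcript and less of it per cell cannot be told apart. KDM4A itself read -0.45 and -0.73 on the knockdown array and 0.45 and 0.73 on the control array in its 2 probe sets, differences of -0.90 and -1.46.

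SR proteins carry RNA-recognition motifs and a domain rich in arginine and serine, bind exonic enhancers and mostly promote inclusion of the exon they bind. hnRNPs coat nascent transcripts and often oppose SR proteins by repressing exons. Many genes of both families control their own amount by splicing in poison exons or keeping introns, which sends the transcript to nonsense-mediated decay or holds it in the nucleus. Probe sets of 1 gene can thus read different transcripts, and for that reason values are given per probe set. Which exon or intron each probe set reads is not stated in the sources used here.

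Most of these transcripts were lower on the knockdown array, by small amounts. Of the 42 genes measured, 37 (88.1%) had a mean below 0, against 46.3% of all named genes. The median of the 42 gene means was -0.19. Of the 157 probe sets, 115 (73.2%) lay below 0, against 46.7% of all named probe sets, and their quartiles were -0.45 and 0.02, against -0.17 and 0.21 over all named probe sets. Large differences were few. No probe set of a member was at least 2-fold higher, where 1.48% of all named probe sets were. At least 2-fold lower were 5 of 157 (3.18%), against a background of 2.39%. By a smaller rule of 1.5-fold, 2 (1.27%) were higher, against a background of 5.50%, and 15 (9.55%) were lower, against 6.37%. Among gene means, none was at least 1.5-fold higher, where 4.30% of all genes were, and 4 were at least 1.5-fold lower (9.52%, background 4.38%). These 4 were PRPF38B, RBM39, TRA2A and HNRNPF.

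**Figure D1:**
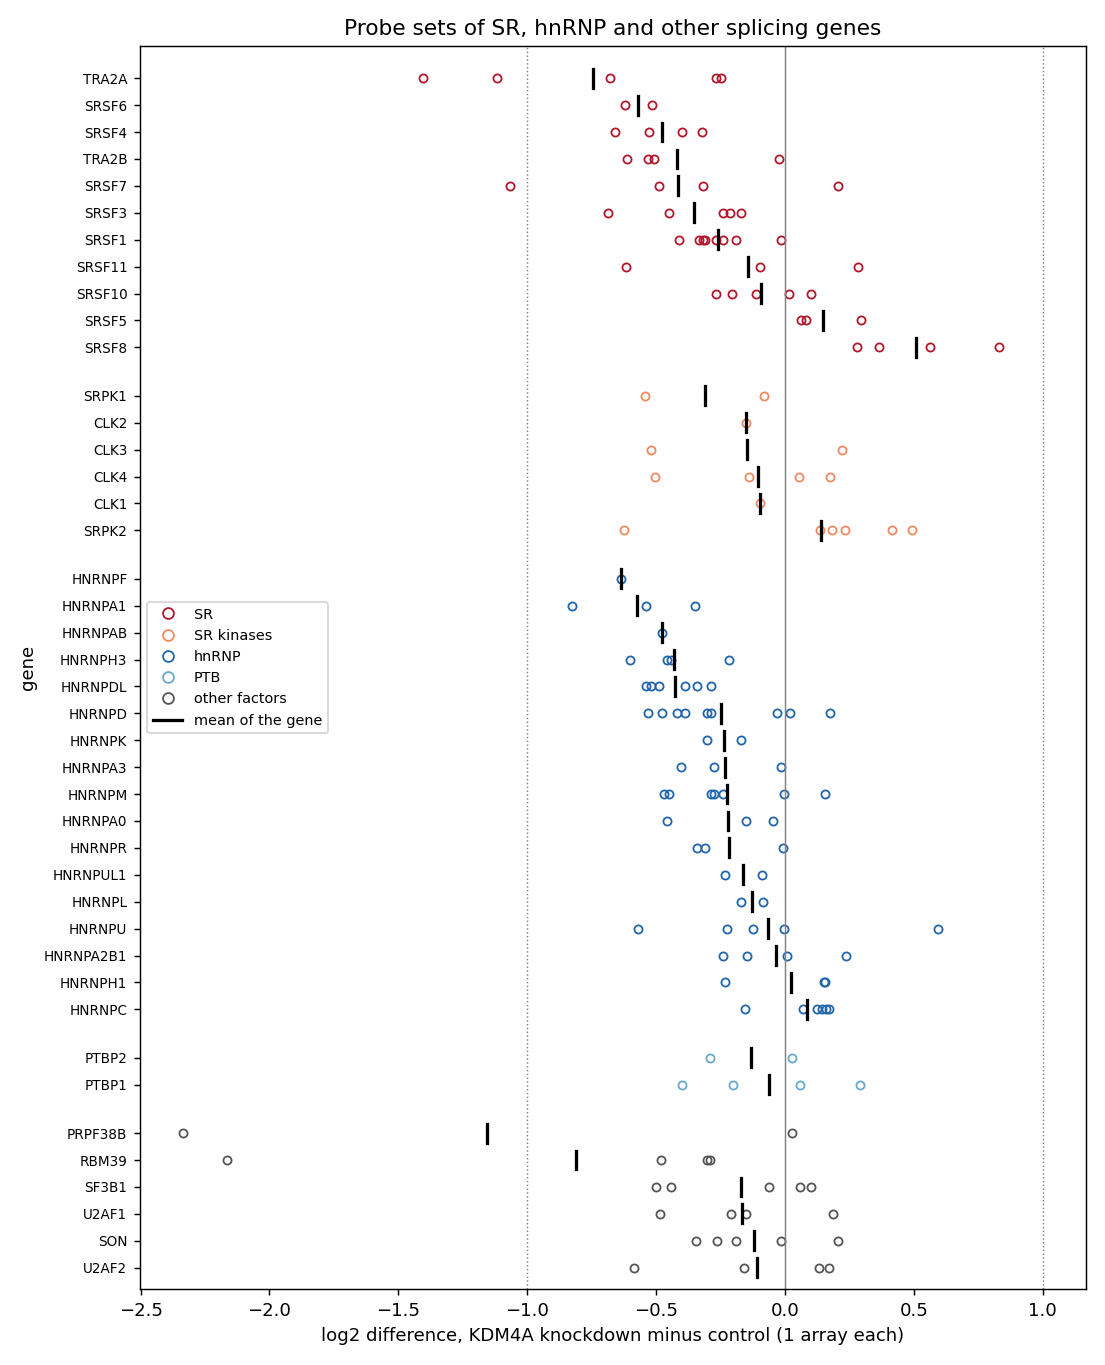
Differences between the KDM4A knockdown and control arrays (log2, x axis) for each probe set (open circles) of the 42 measured genes (y axis), grouped by class and sorted by the gene mean (black bar); dotted lines mark 2-fold. The circles have quartiles of -0.45 and 0.02, SRSF8 lies to the right of 0 in every probe set, and single probe sets of PRPF38B and RBM39 lie beyond -2.

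Genes read by several probe sets often had all of them on the lower side. Of 38 members with 2 or more probe sets, 17 (44.7%) had every one below 0, where 21.6% of all such genes did. Only SRSF5 and SRSF8 among the 38 had every probe set above 0 (5.26%, background 28.7%). Just 2 probe sets were present for 8 of the 38 members, and for 4485 of the 8944 such genes. A side shared by all is reached less easily with more probe sets, so these backgrounds are not like for like. SRSF1, the founding SR protein, was the most densely covered of the consistent genes. All 8 of its probe sets lay below 0, from -0.41 to -0.01, with a mean of -0.26 ± 0.12 (SD, n = 8 probe sets). That mean is also smaller in size than the pooled SD. HNRNPDL, a relative of HNRNPD that binds AU-rich RNA, had 6 of 6 below 0, from -0.54 to -0.29.

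Of the 9 SRSF genes measured, 7 had a mean below 0, where 46.3% of all genes did. SRSF6 (also known as SRp55) read -0.31 and -0.26 on the knockdown array and 0.31 and 0.26 on the control array. Its mean difference of -0.57 ± 0.07 (SD, n = 2 probe sets), 1.48-fold lower, was the lowest among SRSF genes, with both probe sets close together. SRSF4 (SRp75) lay at -0.48 ± 0.15 over 4 probe sets, none of which was above -0.32. SRSF3, the smallest SR protein and an mRNA export adaptor, lay at -0.35 ± 0.22 over 5 probe sets, all below 0, the lowest at -0.68. SRSF10, a splicing repressor when dephosphorylated, lay near 0 at -0.09 ± 0.15 over 5 probe sets. SRSF11 lay at -0.14 ± 0.45, and its 3 probe sets spread from -0.62 to 0.28, so its direction is not settled.

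SRSF8 was the member farthest above 0. Its 4 probe sets read 0.14, 0.18, 0.28 and 0.42 on the knockdown array, and the same values with a minus sign on the control array. The differences of 0.28, 0.36, 0.56 and 0.83 average 0.51 ± 0.25 (SD, n = 4 probe sets), 1.42-fold higher. SRSF8 is a retrotransposed copy of SRSF2, so probe sets of the 2 genes may share sequence, and SRSF2 could not be set beside it. SRSF5 (SRp40) lay at 0.15 ± 0.13 over 3 probe sets, from 0.06 to 0.29, a difference smaller than the pooled SD.

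The promoter windows of SRSF8 and of lower-lying members are printed here because base composition is a feature that the choice of members did not use. They are from RefSeq on GRCh38.p14, are 300 bases long, and run 5′ to 3′ on the gene's strand; capitals mark each CG dinucleotide, which reads the same on both strands. SRSF8 was the highest gene, at chr11:95066627-95066926 (plus strand). SRSF6 was the lowest SRSF gene, at chr20:43457646-43457945 (plus strand). HNRNPDL was the hnRNP gene with the most probe sets all below 0, at chr4:82430176-82430475 (minus strand). PRPF38B had the lowest gene mean, at chr1:108692060-108692359 (plus strand).
SRSF8: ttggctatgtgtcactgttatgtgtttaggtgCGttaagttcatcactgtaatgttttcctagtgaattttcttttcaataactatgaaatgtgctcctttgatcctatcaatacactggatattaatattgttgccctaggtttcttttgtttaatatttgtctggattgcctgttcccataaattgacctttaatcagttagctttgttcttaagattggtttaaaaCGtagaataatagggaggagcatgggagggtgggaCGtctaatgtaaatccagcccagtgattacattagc
SRSF6: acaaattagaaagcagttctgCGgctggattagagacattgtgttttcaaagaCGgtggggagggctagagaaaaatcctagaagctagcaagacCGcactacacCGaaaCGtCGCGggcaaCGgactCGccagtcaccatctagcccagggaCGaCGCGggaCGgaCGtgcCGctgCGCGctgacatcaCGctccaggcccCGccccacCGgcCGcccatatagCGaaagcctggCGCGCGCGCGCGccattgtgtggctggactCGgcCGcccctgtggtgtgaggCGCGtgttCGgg
HNRNPDL: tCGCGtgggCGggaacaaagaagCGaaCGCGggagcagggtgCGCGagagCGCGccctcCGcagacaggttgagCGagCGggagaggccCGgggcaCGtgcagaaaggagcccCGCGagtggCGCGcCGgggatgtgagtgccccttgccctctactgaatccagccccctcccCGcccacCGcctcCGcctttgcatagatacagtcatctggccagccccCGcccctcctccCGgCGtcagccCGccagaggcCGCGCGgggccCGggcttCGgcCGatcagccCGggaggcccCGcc
PRPF38B: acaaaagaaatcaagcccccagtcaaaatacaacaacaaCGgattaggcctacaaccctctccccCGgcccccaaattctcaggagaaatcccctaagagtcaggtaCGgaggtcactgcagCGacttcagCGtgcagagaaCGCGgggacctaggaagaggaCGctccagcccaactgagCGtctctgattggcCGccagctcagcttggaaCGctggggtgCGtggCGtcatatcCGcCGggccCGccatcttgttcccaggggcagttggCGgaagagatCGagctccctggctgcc
The SRSF8 window holds 3 CG dinucleotides and 36% G or C. Those of SRSF6, HNRNPDL and PRPF38B hold 33, 35 and 18. Entries were found for 40 of the 44 members; SRSF2, TRA2A, HNRNPA1 and RBM39 had none. Where a gene had several windows the first was taken. SRSF8 and HNRNPDL had 2 windows each, so a further window of each was not read. The median over the 40 was 29 CG dinucleotides, against 23 over 13884 genes of the array with an entry. At or below the 36% of SRSF8 were 1.48% of those genes, and 10.8% held 3 or fewer CG dinucleotides. CLK3, a kinase of SR proteins, also had 3 in its window, with 56% G or C, and lay at -0.15. The other 4 members with a mean above 0 were SRSF5, HNRNPC, HNRNPH1 and SRPK2, with 23, 15, 11 and 10 CG dinucleotides. HNRNPH1 and SRPK2 had 4 windows each and CLK3 had 2. Low counts also occurred in members with a mean below 0. PTBP2 held 11 and lay at -0.13, and SRSF7 held 17 and lay at -0.42. Composition is given as a description of these windows, and its part in the differences was not tested.

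Both TRA2 genes, relatives of the fly splicing factor transformer-2 that bind GA-rich exonic enhancers, lay lower. TRA2A had 5 probe sets, which read -0.70, -0.56, -0.34, -0.13 and -0.12 on the knockdown array and the same sizes above 0 on the control array. All 5 thus lay on the same side, but they differed in size. The probe sets 213593_s_at and 229574_at differed by -1.40 and -1.12, which is 2.64-fold and 2.17-fold lower, while 204658_at and 227939_s_at lay at -0.27 and -0.25. The gene mean was -0.74 ± 0.51 (SD, n = 5 probe sets). TRA2B lay at -0.42 ± 0.27 over 4 probe sets, of which 3 lay between -0.61 and -0.51 and 1 at -0.02.

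SRSF7 (9G8), an SR protein with a zinc knuckle, showed the widest gap among SRSF genes. Its probe set 213649_at read -0.53 on the knockdown array and 0.53 on the control array, a difference of -1.07. The other probe sets lay at -0.49, -0.32 and 0.21, so the mean of -0.42 ± 0.52 (SD, n = 4 probe sets) hides opposite signs.

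The kinases that phosphorylate SR proteins lay a little below 0 in 5 of 6 genes (83.3%, against 46.3% of all genes), with a median of -0.13. Per probe set they lay near the background. Of their 16 probe sets, 8 (50.0%, against 46.7% of all named probe sets) lay below 0, with a median of -0.01. None of the 6 genes reached 1.5-fold as a gene mean. SRPK1, which loads SR proteins for nuclear import, lay at -0.31 ± 0.33, with its 2 probe sets at -0.54 and -0.08. SRPK2 was the only kinase with a mean above 0, at 0.14 ± 0.40. One of its 6 probe sets lay at -0.62 and the other 5 between 0.14 and 0.49. SRPK2 shares its stretch of the reference with 7 other annotated genes, KMT2E among them. The nuclear CLK kinases, which release SR proteins from speckles, lay between -0.15 and -0.10 in all 4 genes. CLK1 and CLK2 rest on a single probe set each, at -0.10 and -0.15. CLK3 had probe sets at -0.52 and 0.22, and the 4 of CLK4 ran from -0.50 to 0.18.

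The hnRNP genes shared the lower side in 15 of 17 measured members (88.2%, against 46.3% of all genes), with a median of -0.22. HNRNPF, which binds G tracts beside splice sites, was lowest at -0.63, 1.55-fold lower, and rests on 1 probe set (-0.32 on the knockdown array and 0.32 on the control array). HNRNPA1, an exon repressor that counters SRSF1, had probe sets at -0.82, -0.54 and -0.35, with a mean of -0.57 ± 0.24 (SD, n = 3 probe sets). The reference holds 75 pseudogenes named after HNRNPA1, so its probe sets may read other copies too. In all, 25 of the 44 members have pseudogenes named after them, and 21 overlap another gene of the RefSeq annotation. HNRNPAB lay at -0.48 on 1 probe set, and HNRNPH3 at -0.43 ± 0.16 over 4, all below 0. HNRNPDL followed at -0.43 ± 0.10 over its 6 probe sets.

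A middle group of hnRNP genes lay between -0.25 and -0.13. It held HNRNPD (AUF1, which binds AU-rich elements in mRNA), HNRNPK, HNRNPA3, HNRNPM, HNRNPA0, HNRNPR, HNRNPUL1 and HNRNPL. In HNRNPD, 7 of 9 probe sets lay below 0, and the range ran from -0.53 to 0.17. HNRNPL, which binds CA repeats, had its 2 probe sets at -0.17 and -0.09. Each of these means is smaller in size than the pooled SD of 0.33, which is the scatter of single probe sets and not the error of a mean.

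Close to 0 or above it were HNRNPU, HNRNPA2B1, HNRNPH1 and HNRNPC. HNRNPC, which binds uridine tracts and packs nascent transcripts, lay at 0.09 ± 0.12 over 6 probe sets, 5 of them above 0. HNRNPH1 lay at 0.03 ± 0.22 over 3. HNRNPU, a scaffold protein of chromatin and RNA, had a mean of -0.07 ± 0.43, but its 5 probe sets ran from -0.57 (225805_at) to 0.59 (235603_at). The 2 PTBP genes, repressors that bind pyrimidine tracts, also lay near 0. PTBP1 stood at -0.06 ± 0.30 over 4 probe sets and PTBP2, its neuronal relative, at -0.13 ± 0.22 over 2, each with probe sets on both sides of 0.

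The SR genes lay below the hnRNP genes by their medians, -0.35 over 11 genes and -0.22 over 17, a gap of -0.13. The gap was almost absent in the means over genes, -0.26 for SR genes and -0.25 for hnRNP genes. Using the median over the probe sets of each gene it was -0.02, and with probe sets of a RefSeq mRNA accession alone it was 0.01, the other way. Without probe sets ending in _s_at or _x_at, which can match several transcripts, it widened to -0.22 over 9 SR and 13 hnRNP genes. A difference between the families was thus not settled on these arrays. The SR means had the wider range, from -0.74 (TRA2A) to 0.51 (SRSF8), and the hnRNP means ran from -0.63 to 0.09. Their quartiles were close, at -0.45 and -0.12 for SR genes and -0.43 and -0.13 for hnRNP genes. By the 1.5-fold rule, 9 of 47 SR probe sets (19.1%) were lower, and 3 of 64 hnRNP probe sets (4.69%), against the background of 6.37%. Of the 9, TRA2A supplied 3, and SRSF3, SRSF4, SRSF6, SRSF7, SRSF11 and TRA2B 1 each.

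**Figure D2:**
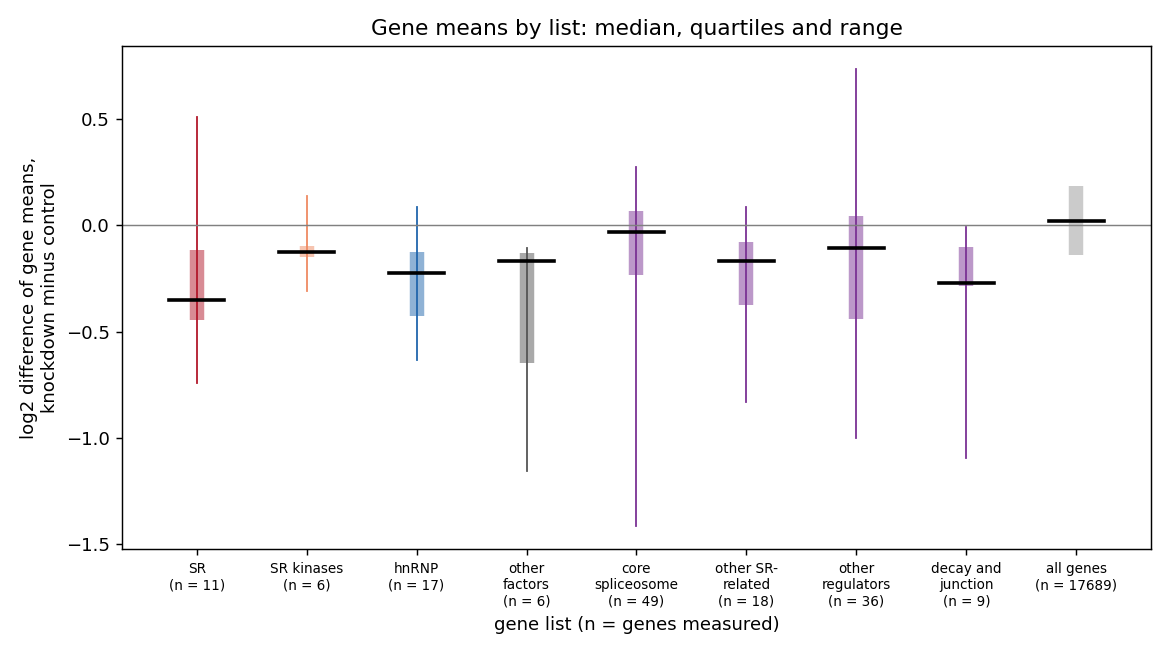
Gene means of the log2 difference (knockdown minus control, y axis) by gene list (x axis, with the number of genes measured): black bar, median; thick bar, quartiles; thin line, lowest to highest (not drawn for all genes). SR genes (-0.35) and hnRNP genes (-0.22) have medians below that of all genes (0.02), and the core spliceosome lies close to 0 (-0.03). The 2 PTBP genes are not drawn.

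Among the 6 remaining factors, the size rested on single probe sets. PRPF38B, a spliceosome-associated protein related to yeast Prp38, had the lowest mean of all members, -1.15 ± 1.67 (SD, n = 2 probe sets), and the only one past 2-fold. Its probe set 230270_at read -1.17 on the knockdown array and 1.17 on the control array, a difference of -2.34 or 5.05-fold lower. Its other probe set, 218040_at, read 0.01 on the knockdown array and -0.01 on the control array. RBM39, a factor related to U2AF2 that helps recognise the end of the intron, lay at -0.81 ± 0.91 over 4 probe sets. Probe set 227223_at read -1.08 on the knockdown array and 1.08 on the control array, a 4.48-fold lower value (-2.16). The other RBM39 probe sets lay at -0.48, -0.30 and -0.29, and the median of the 4 was -0.39.

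SON, the scaffold of nuclear speckles, lay at -0.12 ± 0.22 over 5 probe sets. SF3B1, the branch-point protein of the U2 particle, lay at -0.17 ± 0.28 over 5. U2AF1 and U2AF2, which together mark the end of the intron, lay at -0.16 ± 0.28 and -0.11 ± 0.35 over 4 probe sets each. In U2AF2 the probe sets ran from -0.58 to 0.17. These 4 genes had probe sets on both sides of 0, and none of their probe sets reached 1.5-fold.

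Probe sets lay at least 2-fold apart in 6 of the 38 members with 2 or more (15.8%), against 8.18% of all such genes. The 6 were PRPF38B (range 2.36), RBM39 (1.87), SRSF7 (1.27), HNRNPU (1.17), TRA2A (1.16) and SRPK2 (1.12). Members have 3.74 probe sets per gene and all named genes 1.97, and over all genes the range was wider where there were more probe sets. The shares of 15.8% and 8.18% are therefore not like for like, and no excess among members can be read from them. At 2 probe sets, 1 of 8 members and 2.83% of all genes were that far apart; at 4 it was 2 of 11 members and 14.7%, at 5 it was 2 of 6 and 22.4%, and at 6 or more 1 of 6 and 37.0%. None of the 7 members with 3 probe sets was, where 6.92% of all such genes were.

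The accession that the annotation lists for a probe set gives one way to sort these readings. A RefSeq mRNA accession was listed for 31 of the 157 probe sets (19.7%) and for 24.3% of all named probe sets. Of the 5 member probe sets that were at least 2-fold lower, 4 had another accession, 1 had none listed and none had a RefSeq mRNA accession. Over all genes, 23.8% of the 833 such probe sets had a RefSeq mRNA accession. With only 5 member probe sets, a difference between these shares is not settled. The lowest of the 31 was SRSF6 at -0.62. In 27 members with both kinds, the mean of the remaining probe sets minus that of the RefSeq mRNA ones had a median of -0.02, the same as over 4681 genes of the array (-0.02). It was lower by 1.5-fold or more in 3 of the 27 members (11.1%, against 5.79% of the 4681 genes). It was higher by as much in none of the 27, and in 198 of the 4681 genes. The 3 were PRPF38B (-2.36), CLK3 (-0.74) and TRA2A (-0.59). What transcripts these probe sets read was not tested.

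**Figure D3:**
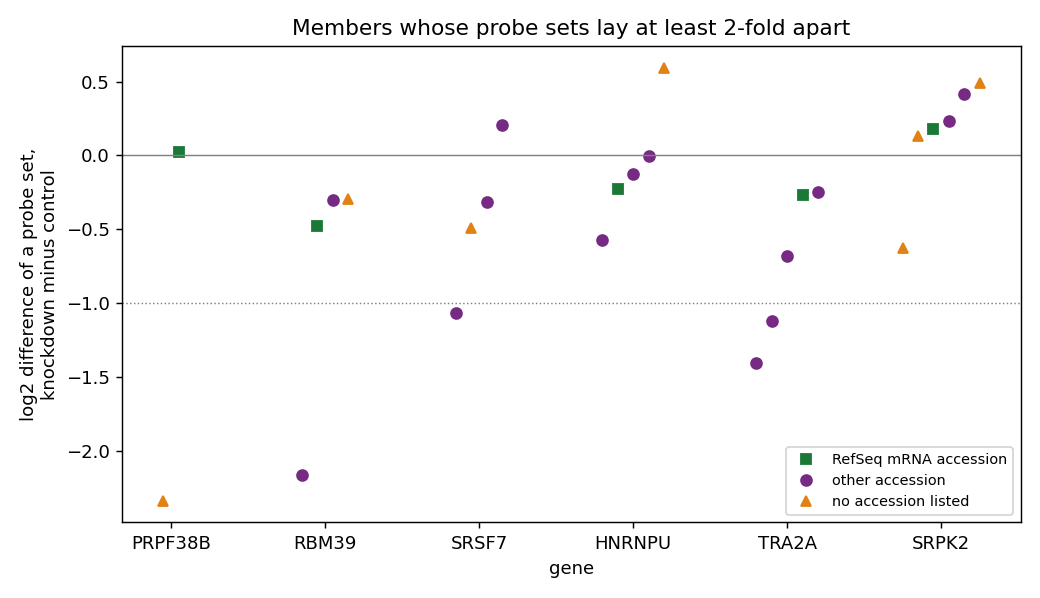
Log2 difference (knockdown minus control, y axis) of each probe set of the 6 members whose probe sets lay at least 2-fold apart (x axis), by the kind of accession the annotation lists; the dotted line marks 2-fold lower. The 5 probe sets under the dotted line belong to PRPF38B, RBM39, SRSF7 and TRA2A, and none of them has a RefSeq mRNA accession.

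Other genes of the splicing pathway, in 4 lists, differed in how far they lay from 0. Of 49 measured genes of the core spliceosome, which carries out the cutting and joining, 27 (55.1%, against 46.3% of all genes) lay below 0, with a median of -0.03. At least 1.5-fold lower were 3 of them (6.12%, near the background of 4.38%). SNRPD1, an Sm ring protein, was 2.67-fold lower at -1.42 ± 0.94 over 2 probe sets. SF3A3 and SNRPA, of the U2 and U1 particles, lay at -0.95 and -0.60 on 1 probe set each. PLRG1 lay at -0.56 ± 0.06 over 2. None of the 49 was 1.5-fold higher, where 4.30% of all genes were.

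Other SR-related proteins of nuclear speckles lay lower in 15 of 18 measured genes (83.3%, against 46.3% of all genes), with a median of -0.17. Of the 18, 1 was at least 1.5-fold lower (5.56%, background 4.38%) and none as much higher. SCAF11, an SR-related factor, had all 7 of its probe sets below 0, from -1.56 to -0.16, and a mean of -0.83 ± 0.52. SRRM2, a speckle scaffold, lay at -0.48 ± 0.87, with 1 of 4 probe sets at -1.74 and the others between -0.34 and 0.24. SRSF12 lay at -0.45 on 1 probe set and SRRM1 at -0.44 ± 0.40 over 2.

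Of 36 other splicing regulators and RNA-binding proteins, 25 lay below 0 (69.4%, against 46.3% of all genes; median -0.11). At least 1.5-fold lower were 5 (13.9%, background 4.38%), and 1 was 1.5-fold higher (2.78%, background 4.30%). The higher gene was RBFOX2, which binds GCAUG elements, at 0.73 ± 0.51, with its 3 probe sets at 0.34, 0.55 and 1.31. TAF15, an RNA-binding protein, lay at -1.002 ± 0.40 over 3 probe sets, and MATR3, of the nuclear matrix, at -0.82 on 1. RBM25, which associates with the U1 particle, had 3 of 7 probe sets at -2.19, -1.91 and -1.20 and the other 4 between -0.14 and 0.09.

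Of 15 listed genes of nonsense-mediated decay and the exon junction complex, only 9 were measured. All 9 lay below 0 (against 46.3% of all genes), with a median of -0.27. Of the 9, 1 was at least 1.5-fold lower (11.1%, background 4.38%). RBM8A (Y14), a core protein of the junction complex, lay at -1.10 ± 1.03 over 6 probe sets, from -2.37 to 0.12. EIF4A3, SMG5 and UPF2 lay between -0.30 and -0.28. RBM8A supplied all 4 probe sets of this list that were at least 2-fold lower. Over the 4 lists together, 20 of 323 probe sets (6.19%), in 10 of 112 genes, were at least 2-fold lower and 1 was at least 2-fold higher, against backgrounds of 2.39% and 1.48%.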

How the data were processed

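Each group had 1 array of biotin-labelled cRNA made from 3 µg of Trizol-extracted total RNA, per the labels' protocols. The values the authors deposited are log2, made with RMA per the submitters' processing notes, which give no version. In every row the 2 arrays sum to 0 within 1e-06, so the values were centred between arrays; neither the log base, the centring nor any probe set filter is stated in the sources used here, and base 2 was taken because RMA works on it. No detection filter was possible.

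Differences are knockdown minus control. Of 44672 probe sets, 34880 had 1 gene (34839 matched RefSeq by Entrez identifier, 0 symbols changed), 1619 several, 8131 none named here, and 42 were controls. A gene value is the mean over its probe sets. Calls are fold rules (1.5 and 2), not tests, and precision is limited by the number of arrays. The members, lists and rules were chosen with earlier results of these data known. Values are given for members with a probe set 2-fold from 0, a mean 1.5-fold from 0 or one of the 10 widest ranges, and for up to 4 genes of each further list with the largest means; other members named were chosen after their values were seen. Python 3.11.15, numpy 2.4.6, pandas 2.3.3 and matplotlib 3.10.9 were used. Promoter windows are from RefSeq, GRCh38.p14. Alternatives are given in the closing section.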

Additional observations from a re-analysis of the deposited data

How the results depend on the processing

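With 1 array per group no array could be left out, and no level, background or detection limit can be read from centred values. No paired analysis was possible because each group had 1 array. By 1.5-fold in place of 2-fold, 2 member probe sets were higher and 15 lower; by 3-fold, 2 were lower. By 2-fold in place of 1.5-fold, 1 gene mean was lower. Without probe sets ending in _s_at or _x_at, which can match several transcripts, 1 gene mean (SRSF8) was at least 1.5-fold higher. By 3-fold in place of 2-fold, probe sets lay apart in 2 genes. The SR median was -0.19 with probe sets of a RefSeq mRNA accession alone, a setting chosen after seeing the data. The gap between SR and hnRNP medians was 0.0055 in that setting, so its sign turned, -0.016 with medians over probe sets and -0.0094 with means over genes. Without _s_at and _x_at probe sets the hnRNP median was -0.13 over the 13 genes left, and the gap was -0.22. Of 42 alternative values, 32 stayed within 1.5 times the count or 0.1 of the median. The main gap of -0.13 is little larger than that 0.1, so a gap could count as unchanged with most of it gone. That held for -0.029 over probe sets, and for -0.042 without TRA2 genes and with PTBP genes counted as hnRNPs. Subtracting the median difference cannot alter the gap, yet it is among the 32.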

Other observations

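The annotation gives another 14 probe sets to a member together with a second gene, and these entered no value above. Of the 14, 13 lay below 0, where 46.7% of all named probe sets did. The median of the 14 was -0.20, with a range from -0.45 to 0.02. The named probe sets leave out those given to several genes, and the share below 0 among these 1619 was not taken. The count of 13 therefore has no like-for-like background.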
